A study of Mus musculus with 20 samples.

Results

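The comparison sets the heart against 3 other mouse tissues on Affymetrix expression arrays. Of the 20 arrays of the series, the 3 that carried total RNA from heart formed one side, and the 9 that carried RNA from brain, lung and muscle, 3 arrays each, formed the other; both sides were taken from the tissue named in the labels. The series deals with sleep apnea and glucose metabolism. The 12 tissues came from C57BL-6J mice aged 20 weeks, and each tissue had 1 array from control mice without hypoxia or broken sleep, 1 from mice with sleep fragmentation and 1 from mice with hypoxia. The remaining arrays of the series were not analysed here. The labels do not say whether an array held RNA of a single mouse or of a pool. The 3 arrays of a tissue differ in exposure, and no exposure has a replicate within a tissue. With exposure as a block, p-values measure how far differences between tissues vary from exposure to exposure, and part of that spread may be technical.

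Heart muscle works by sliding of actin and myosin filaments in the sarcomere, set off at each beat by calcium entering through L-type channels and released from the sarcoplasmic reticulum. Cardiac and skeletal muscle share this machinery but build much of it from different members of the same gene families. The beating heart draws most of its ATP from mitochondrial oxidation of fatty acids, and it secretes natriuretic peptides into the blood.

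The 12 arrays had a median deposited intensity of 349 to 411, except the brain hypoxia array at 1475, and were quantile normalized together. Levels are log2 of the normalized intensity plus an offset of 97.7, so a normalized value of 0 sits at 6.61 and changes of dim genes are understated. Differences between tissues come from limma with exposure as a block, called at a Benjamini-Hochberg adjusted p of 0.05, in 7453 of 12422 probe sets. Over these, the heart arrays correlated with one another at Pearson r from 0.913 to 0.945, with muscle at 0.746 to 0.812, with lung at 0.579 to 0.661 and with brain at 0.514 to 0.551. The summed level of a list is log2 of the sum of its members' levels before log2, so its brightest members weigh most. For skeletal fibre genes it was 14.94 on the brain control array and 15.24 on the lung hypoxia array. It was 13.74 to 14.30 on the other brain and lung arrays, 15.24 to 15.36 in heart and 17.27 to 17.36 in muscle. The median over members, each relative to its mean over the 12 arrays, was -0.27 and -0.21 on these 2 arrays. It was -1.24 to -0.46 on the other brain and lung arrays. The summed level of lung epithelial genes was also high on the brain control array, at 14.13 against 11.87 and 12.11 on the other brain arrays. Their median there was -0.75, against -1.27 and -1.04 on the other brain arrays and 2.34 to 2.73 in lung. The source of these signals was not tested. A fit without the brain control and lung hypoxia arrays was run. Of the named genes called against the mean of the 3 tissues, 3 lost the call in it. Some of the other changes are given below, and single genes were not followed in it for the other comparisons.

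Against the mean of brain, lung and muscle, 1422 probe sets were higher in heart (19.1% of those tested) and 1440 were lower (19.3%). The median difference over all tested probe sets was 0.0007. Higher probe sets made up 49.7% of the calls. With the deposited scaling kept the counts were 325 and 746 and the share was 30.3%. With the brain hypoxia array left out as well, a setting chosen after seeing the data, they were 1458 and 1447 and the share was 50.2%. With the 9 other arrays pooled into a single group, so that tissue differences count as error, 86 were higher and 19 lower. The heart was the highest of the 4 tissues in 1008 of the 1422, muscle in 246, lung in 131 and brain in 37. Of the same 1422, 566 were also higher in heart than in muscle by the test, 42 were lower, and for 814 the difference from muscle was not called. Against single tissues, 1744 probe sets were higher in heart than in brain (23.4%) and 1660 lower (22.3%), 2062 higher than in lung (27.7%) and 1879 lower (25.2%), and 1028 higher than in muscle (13.8%) and 817 lower (11.0%). The last of these counts was 534 without the muscle hypoxia array.

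The 3 genes taken as marks of the heart were the 3 highest in this comparison. They were chosen with earlier results of these data known, so their levels describe the heart arrays and do not test the label. Ankrd1, a stress-responsive protein of the sarcomeric I band, stood at 13.60, 13.65 and 13.45 on the control, fragmentation and hypoxia heart arrays. It lay at 6.88 to 6.97 in brain, 9.91 to 10.24 in lung and 7.25 to 8.89 in muscle. The heart arrays were far above all 9 others, and the difference from their mean was 5.17 ± 0.25 (SE), or 36.1-fold (adjusted p = 7.78e-07). Myh6, the fast α-myosin heavy chain of the heart, was at 13.84, 14.01 and 12.27 in heart, at 11.16 to 11.53 in lung, and at 6.72 to 6.92 on the brain and muscle arrays, close to the level of no signal. Its hypoxia heart array was the lowest of the 3, though still above every lung array. The difference was 5.03 ± 0.28, or 32.6-fold (adjusted p = 2.03e-06). Tnnt2, cardiac troponin T, was at 14.13, 14.13 and 13.90 in heart and between 7.83 and 11.25 elsewhere (difference 4.82 ± 0.16, 28.2-fold, adjusted p = 1.27e-07).

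The next genes by size were of the same kind. Nppb, which encodes brain natriuretic peptide, was higher by 4.38 ± 0.20, with 13.44, 13.30 and 12.82 in heart against 8.23 to 9.44 on the other 9 arrays. Csrp3, a LIM protein of the Z disc, was higher by 4.29 ± 0.27. Cox7a1, the muscle form of a cytochrome c oxidase subunit, was higher by 4.27 ± 0.18, and Ryr2, the calcium release channel of cardiac sarcoplasmic reticulum, by 4.21 ± 0.17. Myl7, the atrial myosin regulatory light chain, was higher by 4.21 ± 0.15, and Ckmt2, the mitochondrial creatine kinase of striated muscle, was 16.1-fold higher, although one of its other 2 probe sets had the opposite sign (-0.33). The other genes among the 20 highest were Myzap, Rrad, Fhl2, Dsp, Tnni3, Nnt, Perp, Tnnc1, Cdh2, Fabp3 and Myh7, with differences from 3.98 down to 3.12. All 20 were chosen among genes whose 3 heart arrays lay above the 9 others, as 465 tested probe sets did (6.24%), while 189 had all 3 heart arrays below (2.54%).

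**Figure D1:**
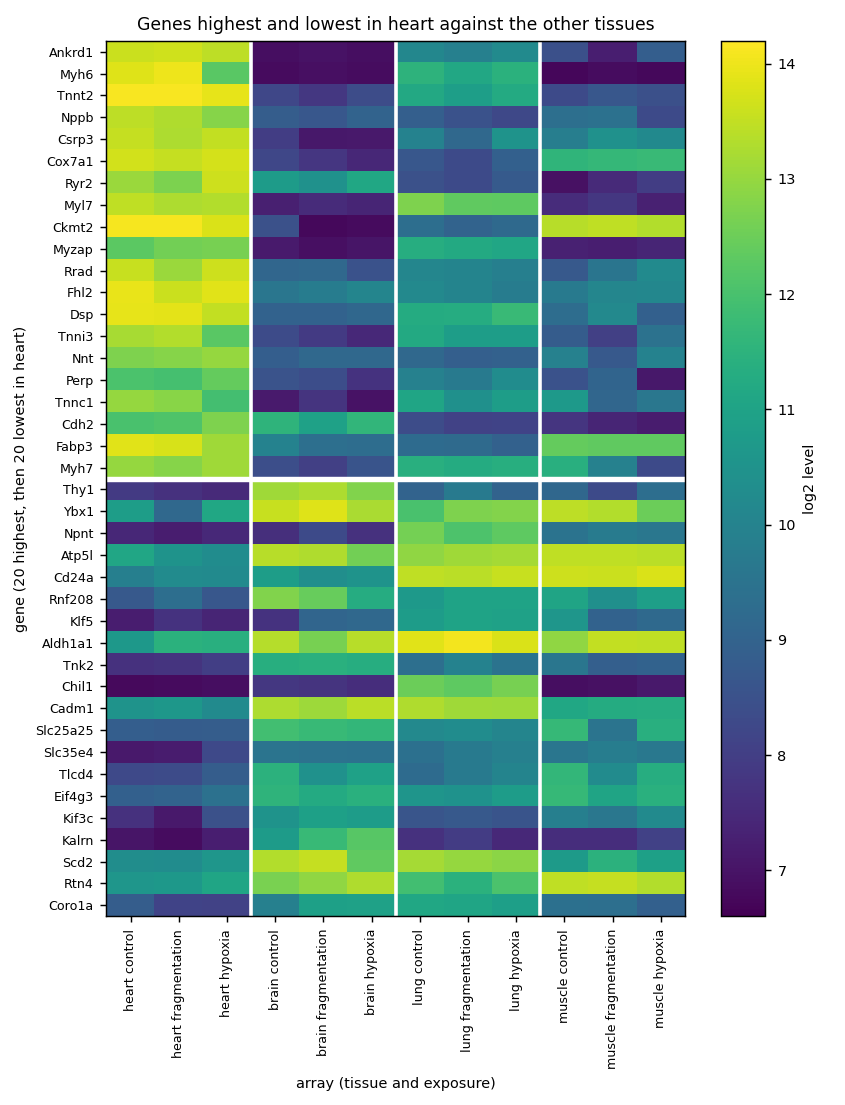
Log2 level (colour, from dark blue for low to yellow for high) of the 20 genes highest and the 20 lowest in heart on each of the 12 arrays, with arrays in columns by tissue and exposure and genes in rows; levels are to be compared within a row. In the upper block the 3 heart columns are brightest and several contractile genes, among them Myl7 and Myh6, are also raised in the 3 lung columns; in the lower block the heart columns are darkest.

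Promoter sequences are shown for 5 of the highest genes because their starts carry a motif known from muscle genes, M-CAT. M-CAT is the sequence CATTCC, bound by TEAD factors, and was searched on both strands, as were AGATAA, a form of the GATA motif, and TATAAA. The sequences are the 250 bases before the first listed transcription start in RefSeq, build GRCm38.p6, printed 5′ to 3′ on the gene's strand, with matches to any of the 3 motifs in capitals. Ankrd1 lies at chr19:36119845-36120094 on the minus strand, Myh6 at chr14:54966608-54966857 on the minus strand, Tnnt2 at chr1:135836084-135836333 on the plus strand, Nppb at chr4:147985650-147985899 on the plus strand and Myl7 at chr11:5898783-5899032 on the minus strand.
Ankrd1: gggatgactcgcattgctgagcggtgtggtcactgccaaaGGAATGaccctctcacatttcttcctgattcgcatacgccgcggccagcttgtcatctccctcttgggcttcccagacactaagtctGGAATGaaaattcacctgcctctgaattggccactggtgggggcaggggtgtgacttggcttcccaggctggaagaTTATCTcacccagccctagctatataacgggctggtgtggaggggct
Myh6: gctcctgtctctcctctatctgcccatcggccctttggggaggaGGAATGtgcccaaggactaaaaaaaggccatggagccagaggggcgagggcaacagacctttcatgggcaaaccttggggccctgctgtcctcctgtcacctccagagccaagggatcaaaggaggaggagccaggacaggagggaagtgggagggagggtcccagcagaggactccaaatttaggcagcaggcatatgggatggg
Tnnt2: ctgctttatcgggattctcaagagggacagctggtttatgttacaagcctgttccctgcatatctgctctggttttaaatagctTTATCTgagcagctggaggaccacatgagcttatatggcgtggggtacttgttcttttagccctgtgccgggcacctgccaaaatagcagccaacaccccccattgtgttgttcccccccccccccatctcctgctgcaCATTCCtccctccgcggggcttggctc
Nppb: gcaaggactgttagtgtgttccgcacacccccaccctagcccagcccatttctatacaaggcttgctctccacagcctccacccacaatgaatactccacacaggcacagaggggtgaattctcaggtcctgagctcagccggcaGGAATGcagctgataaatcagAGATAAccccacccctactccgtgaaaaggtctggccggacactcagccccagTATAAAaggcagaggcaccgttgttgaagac
Myl7: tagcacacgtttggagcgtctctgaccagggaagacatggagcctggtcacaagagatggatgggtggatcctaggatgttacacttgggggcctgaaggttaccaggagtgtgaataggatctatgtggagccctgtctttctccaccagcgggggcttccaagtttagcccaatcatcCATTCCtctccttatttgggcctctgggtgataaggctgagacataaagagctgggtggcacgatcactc
In Ankrd1 the first bases of the 2 M-CAT matches lie 210 and 123 bases before the start, with a GATA match at 47. The M-CAT matches lie at 206 in Myh6, 27 in Tnnt2, 105 in Nppb and 70 in Myl7. Tnnt2 also has a GATA match at 166, and Nppb a GATA match at 84 and a TATAAA match at 31. Of the 20 highest genes, 16 had a sequence in the table, and 7 of these 16 (43.8%) held CATTCC; Tnnc1 and Myh7 were the others. Among the lowest genes it was 3 of 15 (20%). CATTCC occurred in 12.6% of all 27025 promoters listed by RefSeq. AGATAA occurred in 5 of the 16, in 0 of the 15 lowest and in 10.3% of all promoters, and TATAAA in 2 of the 16, 1 of the 15 and 13% of all. The motifs were chosen with these genes known, the 6 letters also occur by chance, and a match is a description of the sequence.

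Genes of the cardiac sarcomere and Z disc were higher in heart as a group. Of 28 listed, 21 were matched on the array and 19 were tested; 16 were higher and 1 was lower, with a median difference of 3.02. Against muscle alone 10 were higher and 2 lower, with a median of 1.32, and 10 were above every other tissue. Over all tested probe sets 13.8% were higher than in muscle, 11.0% lower and 3.96% above every other tissue. The shares over all tested probe sets are likewise to be set beside the counts of each list below. Mybpc3, cardiac myosin-binding protein C, stood at 12.92, 13.28 and 12.48 in heart and at 9.38 to 10.52 on all other arrays, with no overlap; it was higher by 3.02 ± 0.20. Tnni3, cardiac troponin I, was at 13.21, 13.34 and 12.27 against 7.47 to 11.21 elsewhere. Myom2, a protein of the M band in both kinds of striated muscle, was above brain by 4.46 and above lung by 3.77, and its difference from muscle was 0.40 (adjusted p = 0.0901). The gene called lower was Tpm1, a tropomyosin also made outside muscle, at -0.71 ± 0.14; without the heart control or the heart fragmentation array 2 members were lower. Pln, the brake on the cardiac calcium pump, was not analysed here.

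Heart and skeletal muscle parted along pairs of related genes. For troponin T, the cardiac form Tnnt2 was above muscle by 5.57 ± 0.20, while the fast skeletal form Tnnt3 differed by -5.97 ± 0.64. Tnnt3 reached at most 8.63 in heart and lay at 14.10, 13.98 and 14.01 in muscle. For troponin I, Tnni3 was higher by 4.16 and Tnni2 differed by -5.36. For the calcium release channel, Ryr2 was higher by 5.66 ± 0.20 and Ryr1 differed by -5.67 ± 0.24, and for the calcium store protein calsequestrin Casq2 was higher by 2.09 and Casq1 differed by -3.73. Atp2a2, the cardiac and slow-muscle calcium pump, was higher by 2.89 ± 0.22, and Tnnc1, cardiac troponin C, by 2.80 ± 0.36.

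**Figure D2:**
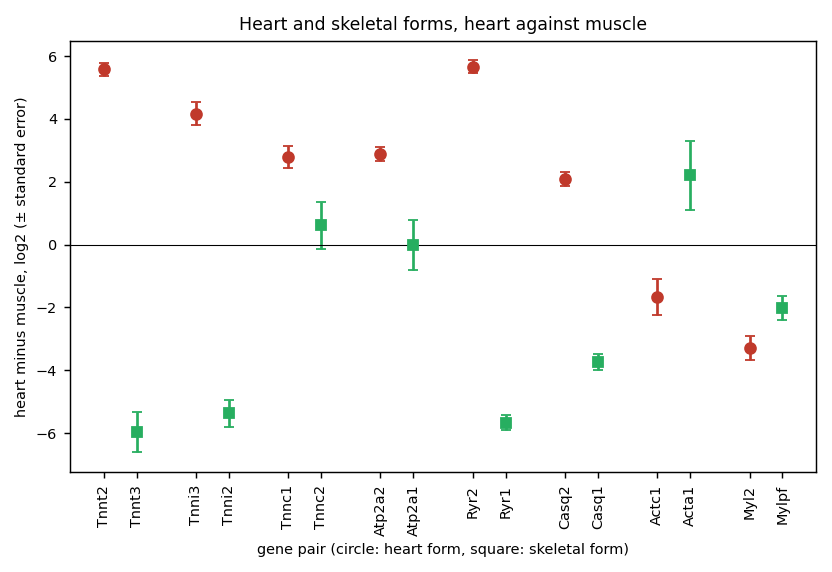
Log2 difference of heart minus muscle (points, with bars for the standard error from limma, 3 arrays a tissue) for 8 pairs of related genes, red circles for the heart form and green squares for the skeletal form. In Tnnt2 and Tnnt3, Tnni3 and Tnni2, Ryr2 and Ryr1, and Casq2 and Casq1 the heart form lies above 0 and the skeletal form below it; Actc1, Acta1, Tnnc2, Atp2a1 and Myl2 do not follow that order.

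Some abundant muscle genes went against that order. Myl2, the ventricular myosin light chain that slow skeletal fibres also make, was at 9.95, 7.96 and 7.75 in heart and 12.33, 11.87 and 11.33 in muscle, lower by 3.29 (difference -3.29 ± 0.39, adjusted p = 0.000264). Actc1, cardiac α-actin, had 2 probe sets that disagreed. The one with the higher mean over the 12 arrays was at 10.43, 13.29 and 11.45 in heart and did not differ by the test from the mean of the others (-0.48 ± 0.46). The other was at 14.07, 13.98 and 13.98 in heart, above all 9 arrays, and was higher by 3.35 ± 0.29. Acta1, the skeletal actin, was at 12.30 to 12.67 in heart and 9.37 to 10.73 in muscle (heart minus muscle 2.21 ± 1.10, adjusted p = 0.172), and was at 12.96 on the brain control array and 13.30 on the lung hypoxia array. Without those 2 arrays Acta1 was called higher in heart than the mean of the others, at 2.67 (adjusted p = 0.00831), and so was Mb, the oxygen store myoglobin, at 1.31 (adjusted p = 0.0112). Tnnc2 and Atp2a1, fast skeletal genes, differed from muscle by 0.61 and -0.01, neither called. Signal of the Gapdh control probe sets, 3′ over 5′, was 0.136 to 1.15 in heart and 0.0090 to 0.264 in muscle, and that of β-actin 0.964 to 1.18 in heart and 0.0288 to 0.0635 in lung; the brain hypoxia array was at 0.0343 for β-actin, against 0.683 and 0.662 on the other brain arrays. The part of these ratios in the results was not tested.

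Of 21 skeletal fibre genes tested, 15 were lower in heart than in muscle, by a median of 2.02 over the list (median difference -2.02), and 1 was higher, Pvalb, a calcium-binding protein of fast fibres, whose 2 probe sets disagreed in sign against the mean of the other tissues. Against the mean of the 3 tissues 8 were lower and 3 higher, and the count of 8 was 5 without the heart hypoxia array. The 3 higher ones were the enzymes Pgam2, Ckm and Eno3, at 3.41, 1.92 and 1.65, which heart muscle also uses. Mylpf, the fast skeletal light chain, differed from muscle by -2.02.

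Genes that carry calcium in and out of the heart cell and its stores were mostly higher. Of 13 tested from a list of 22, 9 were higher and 1 was lower, with a median of 1.51. Above every other tissue were 7, beside 3.96% of all tested probe sets. Ryr2 was at 13.06, 12.71 and 13.63 in heart, 10.43 to 11.13 in brain, 8.32 to 8.75 in lung and 6.94 to 7.98 in muscle, so that brain came second. Slc8a1, the sodium-calcium exchanger that removes calcium after each beat, was higher by 2.71 ± 0.19, with its other 2 probe sets at -0.03 and 2.52. Cacna1c, the pore of the L-type channel, was higher by 2.15 ± 0.27. S100a1, a calcium sensor that acts on the release channel and the pump, was higher by 2.49 ± 0.14 on the probe set used, while its other 2 probe sets gave 0.24 and 0.09. Atp2a2 was at 13.41, 13.96 and 12.81 in heart and also high in brain, at 12.39 to 12.66; its smallest difference was the one from brain, 0.90 (adjusted p = 0.00771). The member called lower was Fkbp1b, a protein bound to the release channel, at -1.19 ± 0.35; without the heart control or the heart fragmentation array, or without the brain control and lung hypoxia arrays, 0 members were lower.

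Of the 21 channel and junction genes tested, 14 were higher and 1 was lower, with a median of 1.31. Above every other tissue were 8, beside 3.96% of all tested probe sets. Genes dim in every tissue but heart entered the test through their heart level. With the filter on the mean over the 12 arrays instead, 10 were higher and 0 lower. The junction genes led. Dsp, desmoplakin, which anchors desmosomes to intermediate filaments, was at 13.90, 13.89 and 13.51 in heart, 11.28 to 11.74 in lung and 8.94 to 10.17 in brain and muscle, in clear steps. It was higher by 3.78 ± 0.23. The other desmosome genes Dsc2 and Pkp2 were higher by 2.63 ± 0.18 and 2.38 ± 0.17, and Cdh2, N-cadherin of the intercalated disc, by 3.29 ± 0.19. Cdh2 was nearly as high in brain, 10.94 to 11.62 against 12.02, 12.12 and 12.72 in heart. Gja1, the main ventricular gap junction protein, was at 12.78 to 13.37 in heart and 12.57 to 13.43 in brain, which overlap, and was above muscle by 2.60 ± 0.30.

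Among potassium channels, Kcnk3 (TASK-1, a background channel) was higher by 2.87 ± 0.25, at 10.98, 10.24 and 10.31 in heart and 7.12 to 8.54 on every other array. The ATP-sensitive channel is built of a pore and a sulfonylurea receptor. The pore gene Kcnj8 was above every tissue, higher by 2.15 ± 0.16, and Kcna5, an atrial repolarising channel, was higher by 1.78 ± 0.12. Abcc9, the receptor, and Kcnj11, the other pore, were above brain and lung, and their differences from muscle, 0.42 and -0.37, were not called. The channel gene called lower was Cacna1g, a T-type calcium channel also made in brain, at -0.66 ± 0.21; 0 members were lower without the heart control, heart fragmentation, brain control, lung fragmentation or lung hypoxia array.

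Among the hormone genes, Nppb described above had the largest difference and was followed by Corin and Nppa. Nppa, which encodes atrial natriuretic peptide, was at 13.00, 12.77 and 12.37 in heart, 12.37, 10.89 and 10.73 in lung, 8.98 to 10.26 in brain and 9.48 to 10.46 in muscle. The lung control array reached the level of the hypoxia heart array, so the groups overlap. The difference was 2.38 ± 0.26 (adjusted p = 8.72e-05). Corin, the protease that cuts the Nppa precursor, was at 10.61, 11.02 and 11.21 in heart, above all 9 others, and higher by 3.05 ± 0.21. Adcy6, a cardiac adenylyl cyclase that responds to adrenergic signals, was higher by 1.58 ± 0.18. Of 29 listed, 16 were matched on the array and 10 were tested. Of these 6 were higher and 0 lower, beside 19.1% and 19.3% of all tested probe sets. With the filter on the mean over the 12 arrays instead, 5 were higher and 0 lower.

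Of 12 cardiac transcription factors tested, 7 were higher and 2 lower. The 7 became 4 without the heart hypoxia array or with the deposited scaling kept. With that scaling and the brain hypoxia array left out as well, 8 were higher. With the filter on the mean over the 12 arrays instead, 6 were higher and 1 lower. Nkx2-5, which starts and keeps the cardiac programme, was at 10.98, 8.97 and 10.94 in heart and 7.46 to 7.92 elsewhere. The fragmentation heart array lay well below the other 2 and still above the 9. The difference was 2.65 ± 0.32. Gata4 was at 11.89, 11.82 and 11.54 in heart and higher by 1.28 ± 0.17, above every tissue, and Ppara, the fatty-acid-sensing nuclear receptor, by 1.33 ± 0.13. Gata6 was higher by 2.05 ± 0.23, but its heart and lung levels, 11.04 to 11.33 and 10.54 to 10.90, differed by 0.42, which was not called. Mef2c and Mef2d were lower; Mef2c, a factor shared by muscle and brain, was at 8.85, 9.09 and 10.13 in heart and 11.01 to 12.63 in muscle (-1.54 ± 0.39 against the 3 tissues), and its other 3 probe sets had the same sign. Without the heart control array or the heart fragmentation array neither factor was called lower (Mef2c -1.46 in both, adjusted p = 0.062 and 0.061), and 1 of the 2 was without several arrays of the other tissues.

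Genes of fatty acid uptake and oxidation were almost wholly higher in heart. Of 25 tested, 23 were higher and 0 lower, with a median difference of 1.76 beside 0.0007 for all tested probe sets. Against muscle, itself an oxidative tissue, 18 were higher and 1 was lower. Above every other tissue were 16, beside 3.96% of all tested probe sets. Fabp3, the fatty acid carrier of heart cytosol, was at 13.85, 13.74 and 13.13 in heart and 12.35 to 12.40 in muscle, with brain and lung at 8.96 to 9.97. All 3 heart arrays were above all 3 muscle arrays. It was higher by 3.22 ± 0.15 against the 3 tissues and by 1.20 ± 0.19 against muscle (adjusted p = 0.00124).

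Lpl, which frees fatty acids from circulating fat, was at 13.04, 13.29 and 13.89 in heart, 11.71 to 11.98 in muscle, 11.05 to 11.62 in lung and 7.47 to 8.56 in brain. It was higher by 3.01 ± 0.26, and Cd36, the uptake protein, by 2.23 ± 0.19 on the probe set used, against -0.03 on its other one. The electron carriers that pass on the electrons of β-oxidation were among the largest: Etfdh was higher by 3.10 ± 0.21 and above muscle by 2.18 ± 0.25, and Etfa by 2.71 ± 0.18. Of the oxidation enzymes, Decr1 was higher by 2.56 ± 0.15 and Acadl, the long-chain acyl-CoA dehydrogenase, by 2.52 ± 0.16. Pdk4, which holds back glucose oxidation, was at 12.93 to 13.50 in heart and 13.23 to 13.66 in muscle, which overlap (-0.31, adjusted p = 0.275). Ucp3, an uncoupling protein, was lower in heart than in muscle by 0.96 (difference -0.96, adjusted p = 0.00277). Cpt1a, the liver form of the mitochondrial gatekeeper, was lower in heart than in lung (-1.56, adjusted p = 0.000698) and higher than in muscle (1.96).

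**Figure D3:**
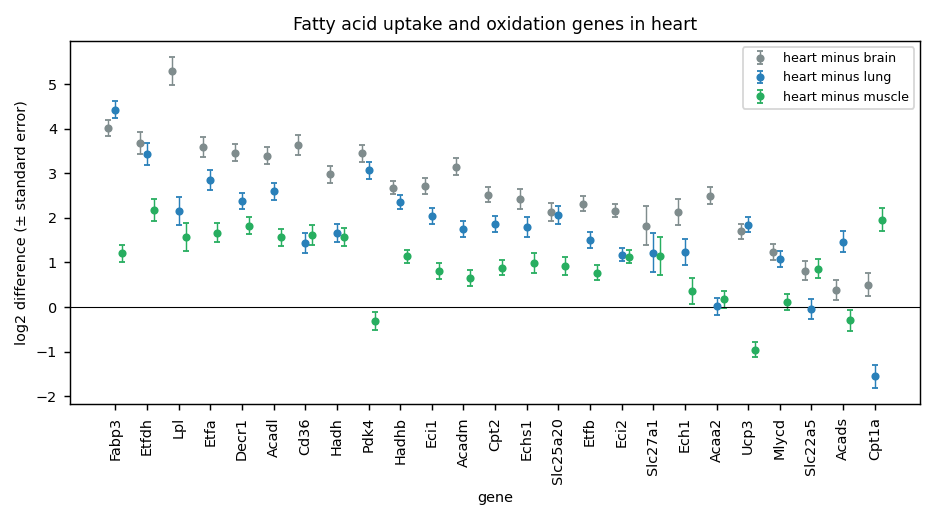
Log2 difference of heart minus brain (grey), minus lung (blue) and minus muscle (green), with bars for the standard error from limma, for the 25 tested genes of fatty acid uptake and oxidation, ordered by their difference from the mean of the 3 tissues. Most points lie above 0, and for most genes the difference from brain is the largest and that from muscle the smallest; Ucp3 against muscle and Cpt1a against lung lie clearly below 0.

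The tricarboxylic acid cycle and the oxidation of ketones and branched-chain amino acids went the same way. Of 22 cycle genes tested 19 were higher and 0 lower, with a median of 1.22; against muscle 8 were higher and 0 lower, with a median of 0.41. Idh2, the NADP-dependent isocitrate dehydrogenase, was at 12.97, 13.25 and 13.17 in heart and 9.48 to 11.68 on the other arrays, higher by 2.30 ± 0.12 and by 1.64 against muscle. Sdha, a subunit of succinate dehydrogenase, was higher by 1.71 ± 0.15. Of 14 ketone and amino acid genes 13 were higher and 0 lower, with a median of 1.13. With the deposited scaling kept, 9 cycle genes and 4 ketone and amino acid genes were higher, and 19 and 13 when the brain hypoxia array was left out as well. Oxct1, which lets the heart burn ketone bodies, was at 12.87 to 13.18 in heart, 12.00 to 12.15 in muscle, 11.52 to 11.95 in brain and 10.55 to 10.95 in lung, in that order without overlap, and was higher by 1.48 ± 0.14.

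In the respiratory chain 41 of 57 tested genes were higher and 4 were lower, with a median of 0.93. With the deposited scaling kept 14 were higher, and 39 were when the brain hypoxia array was left out as well. Against lung 48 were higher, against brain 42, and against muscle 14, with 7 lower than muscle and a median of 0.22. Cox7a1 stood apart, at 13.68, 13.52 and 13.71 in heart, 11.56 to 11.75 in muscle and 7.45 to 8.92 in brain and lung. Uqcrb of complex III was higher by 1.86 ± 0.12 and Atp5k of the ATP synthase by 1.99 ± 0.17. Cox8b, another muscle form, was higher by 1.96 ± 0.13 than the 3 tissues, and its difference from muscle was -0.48 (adjusted p = 0.0554). The 4 lower members were Atp5l, Ndufb5, Ndufv1 and Uqcrq, and the count was 1 without the heart control array, 2 without the heart hypoxia, brain control, lung control or lung hypoxia array, and 1 without the brain control and lung hypoxia arrays together. Atp5l, a small ATP synthase subunit, was at 11.10, 10.52 and 10.29 in heart and 12.59 to 13.46 elsewhere on one probe set (-2.57 ± 0.19), and was higher by 0.68 ± 0.18 on the other. Nnt, the mitochondrial transhydrogenase, was at 12.74, 12.81 and 13.01 in heart and 8.73 to 9.96 on all others, higher by 3.65 ± 0.22. C57BL-6J mice are known to carry an inherited deletion within Nnt; where the probes lie against it was not tested.

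Genes of sugar use went both ways. Of 26 glycolysis and glycogen genes 12 were higher and 3 lower, with a median of 0.42. With the deposited scaling kept 6 were higher, and 11 when the brain hypoxia array was left out as well. Against muscle 7 were higher and 7 lower. Slc2a4, the insulin-responsive glucose transporter, was at 12.51, 11.79 and 12.54 in heart and 12.39 to 12.49 in muscle, which overlap, and at 7.38 to 9.13 in brain and lung. Slc2a1, the basal transporter, was lower in heart by 1.20 (-1.20 ± 0.22). Pygb, the brain form of glycogen phosphorylase, was at 11.84, 11.92 and 12.10 in heart, 10.21 to 10.70 in brain, 9.54 to 9.86 in lung and 7.08 to 7.35 in muscle. It was thus highest in heart and lowest in muscle, where Pygm, the muscle form, differed from heart by -0.42, not called. Aldoc, the brain aldolase, and Eno2, the neuronal enolase, were lower, at -2.23 and -1.54.

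Of 15 genes of energy buffering and oxygen store 10 were higher and 1 lower, with a median of 0.75. With the deposited scaling kept 4 were higher, and 10 when the brain hypoxia array was left out as well. Ckmt2 was at 14.10, 14.10 and 13.76 in heart and 13.33 to 13.49 in muscle (heart minus muscle 0.59, adjusted p = 0.222), with brain and lung at 6.76 to 9.33. Ppif, cyclophilin D of the mitochondrial permeability pore, was above every tissue, higher by 2.76 ± 0.24. The member called lower was Slc25a4, the heart and muscle ADP/ATP carrier, at 11.83, 12.75 and 11.30 in heart and 13.71 to 13.90 in muscle (-1.43 ± 0.23 against the 3 tissues). Among chaperones 7 of 12 were higher and 4 lower. With the deposited scaling kept the counts were 3 and 1, and 7 and 4 when the brain hypoxia array was left out as well. The higher ones included the small heat shock genes Cryab, at 2.16 ± 0.13, Hspb2 at 1.58 and Hspb8 at 1.33, and the lower ones the stress-inducible Hspa1a at -0.84 and Hsph1 at -0.97.

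**Figure D4:**
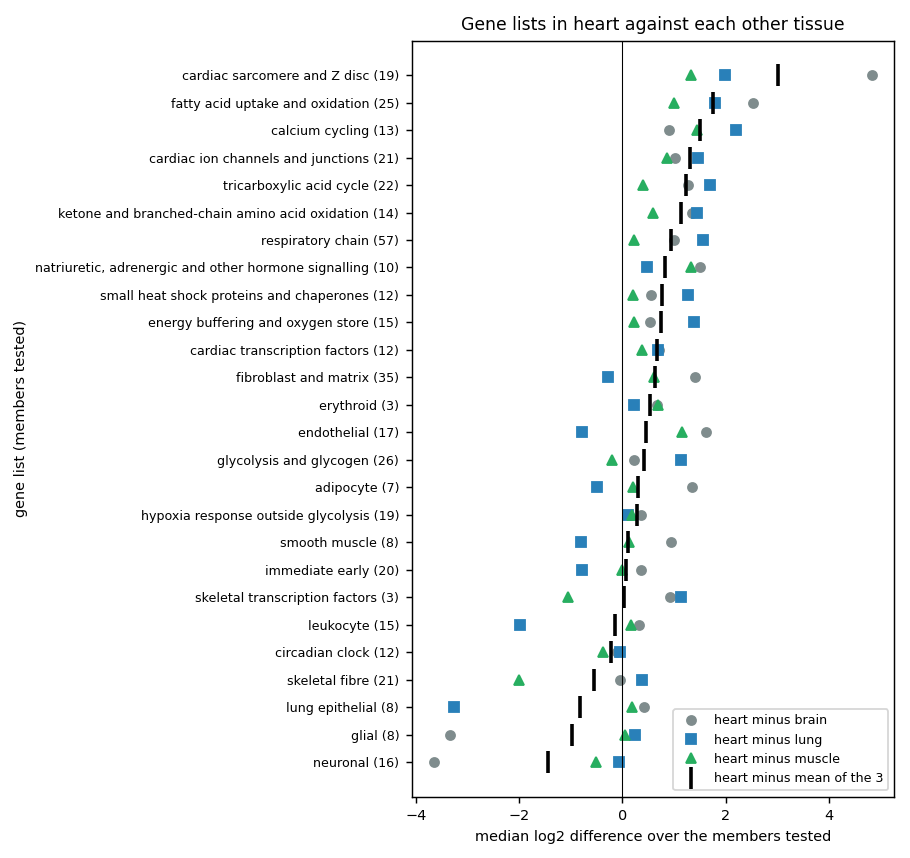
Median log2 difference of each gene list for heart minus the mean of the other tissues and heart minus each tissue alone, over the tested members of the list. The cardiac sarcomere, calcium, fatty acid and tricarboxylic acid cycle lists lie above 0 in every comparison. Several other lists do too, among them channels and junctions, the respiratory chain and, by a smaller margin, the hypoxia response. The neuronal list lies far below 0 against brain and the lung epithelial list against lung.

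Of 17 endothelial genes 16 were higher in heart than in brain, 12 higher than in muscle and 11 lower than in lung, with none the other way in any of the 3. Tie1, an endothelial receptor, was at 10.49 to 10.96 in heart, 8.91 to 9.46 in muscle, 7.52 to 8.42 in brain and 11.60 to 12.16 in lung. Of 35 fibroblast and matrix genes 17 were higher than the mean of the tissues and 1 was lower. The 17 became 11 without the heart control array and 5 with the deposited scaling kept. With that scaling and the brain hypoxia array left out as well, 19 were higher. Against lung alone 11 were higher and 13 lower, with a median of -0.28, against brain 23 were higher and 1 lower, and against muscle 13 were higher and 0 lower. Lum, a collagen-binding proteoglycan, was above every tissue, at 11.92, 11.42 and 11.88 against 8.81 to 10.43, higher by 2.16 ± 0.13. Col15a1, a basement membrane collagen, was higher by 2.03 ± 0.17. In whole tissue, fewer cells of a type and less RNA per cell cannot be told apart.

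Of 15 leukocyte genes 13 were lower in heart than in lung, by a median difference of -1.99. All 16 neuronal genes tested were lower than in brain, with a median of -3.66; Snap25 was at 6.79 to 6.94 in heart, near the level of no signal, and 13.76 to 13.94 in brain. Of 8 glial genes 7 were lower than in brain, and of 8 lung epithelial genes 6 were lower than in lung, among them Napsa at 7.26 to 7.38 in heart and 13.23 to 13.34 in lung. Adipocyte genes were called in no larger a share than the 19.1% higher and 19.3% lower of all tested probe sets. Of 7 adipocyte genes 1 was higher than the 3 tissues, Cidea (1.61 ± 0.41), and 1 lower, Car3 (-1.02 ± 0.25). Without the heart control array neither was called, at 1.65 (adjusted p = 0.0505) for Cidea and -0.77 (adjusted p = 0.0761) for Car3. Cidea was not called without the heart hypoxia array (1.41, adjusted p = 0.0667), nor Car3 without the heart fragmentation array (-0.93, adjusted p = 0.0587); the summed level of the list was 13.41 to 14.39 in heart, 14.98 on the muscle hypoxia array and 15.32 on the muscle fragmentation array. Smooth muscle had 1 of 8 higher (Acta2) and 1 lower (Cnn1), again no larger a share than among all tested probe sets. Of the 3 erythroid genes tested Alas2 was higher by 1.66 and Hba-a1 lower (-1.61, adjusted p = 0.0334). The Hba-a1 call was lost without either of the heart control and heart hypoxia arrays (-1.37 and -0.90, adjusted p = 0.156 and 0.224). It was also lost without 5 of the 9 other arrays, taken one at a time. Without the brain control and lung hypoxia arrays together it was lost too (-1.54, adjusted p = 0.0823).

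Of 19 hypoxia-response genes outside glycolysis 6 were higher and 1 lower in heart, with a median of 0.29. With the deposited scaling kept 2 were higher, and 6 when the brain hypoxia array was left out as well. Egln1, the oxygen-sensing prolyl hydroxylase, was higher by 1.72 ± 0.12 and Pdk1 by 1.41 ± 0.15, both above every tissue. Of 20 immediate early genes 3 were higher and 4 lower, near the 19.1% and 19.3% of all tested probe sets. Of 12 clock genes 0 were higher and 3 lower, the latter again near the share of all tested probe sets. Per1, a core clock repressor, was below every tissue, at 8.71, 9.27 and 9.68 in heart and 9.81 to 11.29 elsewhere (-1.11 ± 0.18). Of the 3 skeletal transcription factors tested, Eya1 was higher, by 0.94. With the deposited scaling kept 0 were higher, and 1 was when the brain hypoxia array was left out as well. Against muscle alone 1 of the 3 was higher and 2 were lower, with a median of -1.06.

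Probe sets above every other tissue in all 3 tests numbered 295 (3.96%), and those below every other tissue 106 (1.42%). By the smallest of the 3 differences, the first were led by Nppb, Fhl2, Ankrd1, Rrad, Nnt, Csrp3, Tnnt2, Mybpc3, Kcnk3 and Nkx2-5. Fhl2, a LIM-domain protein bound to titin, was at 13.96, 13.58 and 13.86 in heart and 9.59 to 10.18 on all 9 others, so that brain, lung and muscle lay together; it was higher by 3.99, 3.80 and 3.83 than these in turn. Rrad, a small GTPase that restrains the L-type channel, was at 13.56, 13.06 and 13.61 against 8.51 to 10.25.

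Genes below every tissue were led by Atp5l, Ybx1, Aldh1a1, Slc35e4, Rnf208, Hipk2, Mrtfa, Eif4g3, Slc12a2 and Tnk2. The count of 106 was 67 without the heart control array and 69 without the brain control and lung hypoxia arrays. The other probe set of Atp5l, described above, was higher in heart than the mean of the 3 tissues, by 0.68. Ybx1, an RNA- and DNA-binding protein, was at 10.84, 9.18 and 11.13 in heart and 12.01 to 13.82 elsewhere, without overlap (-2.66 ± 0.39). Aldh1a1, which makes retinoic acid, was at 10.66, 11.44 and 11.40 in heart and 12.66 to 14.07 elsewhere (-2.28 ± 0.21), and its other probe set gave 0.14. Slc12a2, the sodium-potassium-chloride carrier, was at 10.74, 10.87 and 11.30 against 12.24 to 13.08 (-1.59 ± 0.16).

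Of the 1440 lower probe sets, brain was the highest tissue in 694, lung in 555 and muscle in 191. Among the 20 lowest genes, Thy1, a surface protein of neurons and lymphocytes, was at 7.52 to 7.89 in heart and 12.75 to 13.25 in brain (-2.70 ± 0.24). Npnt, a matrix protein, was at 7.21 to 7.46 in heart and 12.09 to 12.61 in lung (-2.57 ± 0.18), and Chil1, a chitinase-like secreted protein, at 6.80 to 6.87 and 12.31 to 12.63. Cd24a, a surface glycoprotein, was at 9.87, 10.27 and 10.24 in heart, near brain at 10.35 to 10.82, and at 13.40 to 13.77 in lung and muscle (-2.44 ± 0.15). Rtn4, the reticulon Nogo, was at 10.60, 10.66 and 11.06 in heart and 11.46 to 13.53 elsewhere.

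Several heart genes were also measured in lung. Over all tested probe sets, 2033 were higher in lung than in the mean of brain and muscle (27.3%) and 2459 lower (33.0%), with a median of -0.11. Of the 19 cardiac sarcomere genes 10 were higher and 5 lower, with a median of 1.11. Myl7 was at 12.72, 12.34 and 12.31 in lung, against 7.26 to 7.84 in brain and muscle and 13.25 to 13.48 in heart. All 3 lung arrays were close below the heart and far above the rest (lung minus brain and muscle 4.98 ± 0.16, adjusted p = 2.01e-08). Myh6 was higher by 4.56 ± 0.30 (adjusted p = 1.2e-06) and Myzap, a protein of the intercalated disc, by 4.03 ± 0.14.

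Tnnt2 was higher in lung by 2.79 ± 0.17, Tnni3 by 2.62, Ankrd1 by 2.53, Tnnc1 by 2.21 and Dsp, which epithelia also make, by 2.18. Other cardiac genes were not called in lung: Fhl2 was at 9.80 to 10.18 there (0.11, adjusted p = 0.584) and Nppb at 8.23 to 8.90 (-0.39, adjusted p = 0.143). Of 6 atrial genes tested, Myl7, Myh6 and Nppa (1.48 ± 0.28, adjusted p = 0.00123) were higher in lung, Kcna5 and Gja5 were lower, at -1.41 and -0.47, and Myl4 was at 0.05. Of the 3 ventricular genes Myh7 was higher by 2.24 ± 0.46, Myl2 lower (-2.59 ± 0.34, with muscle high), and Myl3 was at 0.04 (adjusted p = 0.959), with 7.63 and 8.03 on the control and fragmentation lung arrays and 10.69 on the hypoxia lung array. The cells behind these lung signals were not tested.

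**Figure D5:**
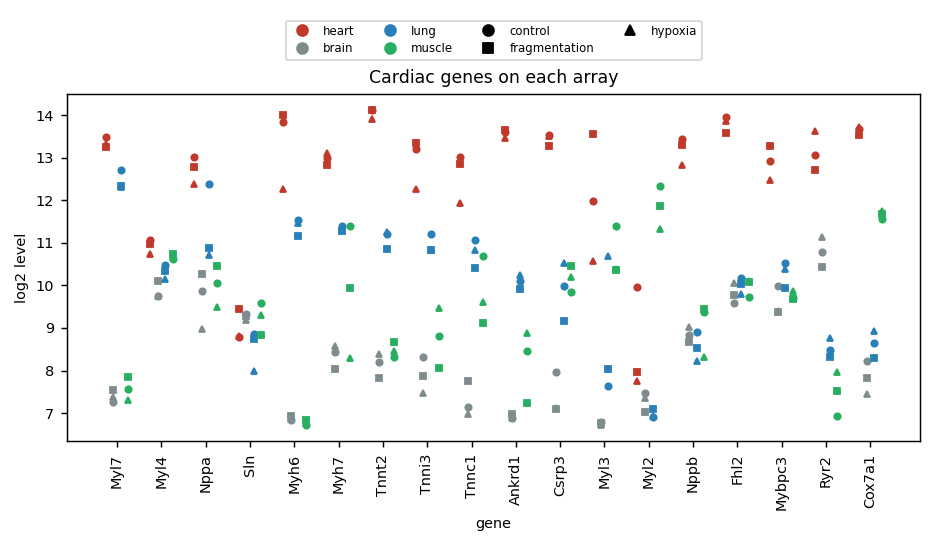
Log2 level on each array (points, coloured by tissue) of cardiac genes measured in lung. The lung points of Myl7, Myh6 and Tnnt2 lie between those of the heart and those of brain and muscle, with symbols marking the exposure, while the lung points of Nppb and Fhl2 lie with those of brain and muscle.

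Within heart each exposure had 1 array, so its differences have no replicate check and no test, and the 2 exposures share the control array. The median absolute difference from control was 0.23 for fragmentation and 0.30 for hypoxia. With fragmentation 157 probe sets were at least 2-fold higher (2.11%) and 156 lower (2.09%), and with hypoxia 283 were higher (3.80%) and 163 lower (2.19%). These counts follow the offset: with it at the 40th percentile they were 73, 60, 119 and 74, and at the 5th percentile 226, 232, 406 and 218. Among the highest with fragmentation were Hba-a1, α-globin, at 12.81 against 9.76 in control and 8.94 in hypoxia, and the probe set of Actc1 at 13.29 described above. Rnf10, a ring finger protein, had the largest difference, at 11.08 against 7.69 in control, and Cox6a2, a muscle cytochrome c oxidase subunit, was higher by 2.25. Fkbp8, a mitochondrial anti-apoptotic protein, was the lowest, at 7.91 against 10.85, and Nkx2-5 and Myl2 were among the next (-2.01 and -1.99). With hypoxia, Nomo1, a membrane protein of the endoplasmic reticulum, was the highest, at 11.21 against 8.37, and Ift46, of cilium transport, the lowest (-2.58); Abcg1, a sterol exporter, was at -2.21.

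Of the 19 sarcomere genes 4 were at least 2-fold lower on the hypoxia array and 1 higher. The 4 were Myl2 (-2.20), Myh6 (-1.57), Myl3 (-1.41) and Tnnc1 (-1.07), and the higher one was Actc1 (1.01) on the probe set used. The Gapdh 3′ over 5′ ratio was also lowest on the hypoxia heart array, at 0.136 against 0.443 in control and 1.15 with fragmentation, and its part in these differences was not tested. Nr1h3, the oxysterol receptor LXRα, was at 7.48 in control, 9.55 with fragmentation and 10.18 with hypoxia, and Plk3, a stress kinase, at 9.17, 6.68 and 6.62; in both the control array stood apart from the other 2. Of the 19 hypoxia-response genes 2 were at least 2-fold higher on the hypoxia array and 0 lower: Ddit4, an mTOR inhibitor, at 9.92, 11.17 and 11.47 on the control, fragmentation and hypoxia arrays, and Igfbp3, a growth factor binder, at 7.90, 8.10 and 9.12. Their median difference was 0.23. Of the 25 fatty acid genes 1 was higher and 1 lower by that fold with hypoxia, with a median of 0.03: Slc27a1, a fatty acid transporter, at 1.33 and Ech1, an oxidation enzyme, at -1.23.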

How the data were processed

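RNA from heart, brain, lung and muscle was measured on 12 one-colour Affymetrix arrays. The values used are the intensity per probe set that the authors deposited, 12488 on each array. The authors' methods of summary and scaling were not given in the sources used here. For this comparison 66 control probe sets were left out, the 12 arrays were quantile normalized together, the 20th percentile of all positive values on the 20 arrays (97.7) was added, and log2 was taken. Of the 12422 left, the test took the 7453 whose largest of 4 tissue means exceeded the 40th percentile of these largest means. A probe set dim in every tissue but heart was thus tested only because of its heart level. Differences were fitted with limma 3.58.1 in R 4.3.3 (lmFit and eBayes, two-sided, 6 residual degrees of freedom, Benjamini-Hochberg over all kept probe sets), with tissue means and exposure as a block, since every tissue has 1 array for each exposure. The scripts were tested on simulated data.

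GEO's platform annotation gave 1 symbol for 10833 probe sets, several for 396 and none for 1193; a gene is represented by the probe set with the highest mean over the 12 arrays. Promoter sequences are RefSeq's, build GRCm38.p6. Levels of different probe sets were not compared. No depth is defined for arrays, and their number limits the precision. Named genes are the 20 highest and 20 lowest without overlap, up to 6 members of each list by size, the heart markers, the heart and skeletal pairs, the 10 above and below every tissue by the smallest difference, and the 8 largest per exposure; other names were chosen after their values were seen. The comparison, the gene lists and the markers were chosen with earlier results of these data known. Alternatives covered the offset, the filter, the scaling, the exposure term, variance moderation, one pooled control group and leaving out each array.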

Additional observations from a re-analysis of the deposited data

How the results depend on the processing

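Of the 167 named genes that were called, 0 changed sign under the alternatives in which they were tested. Most were named for large called differences on these same arrays, so a change of sign was unlikely from the start. With the filter on the mean over the 12 arrays 16 were not tested, with the deposited scaling kept 1, and without the heart hypoxia array 1. The call was lost by 21 when some single array was left out. Keeping the deposited scaling, in which the brain hypoxia array is the brightest, lowered most counts: 325 higher and 746 lower against the mean of the 3 tissues, 378 higher against brain, 728 and 848 against lung, 279 and 225 against muscle, 57 above and 19 below every tissue, and 909 higher in lung than in brain and muscle; the median over all probe sets was then -0.20, and 32 named genes lost the call. With that array left out as well, a setting chosen after seeing the data, the counts were 1458 and 1447. Treating the 9 other arrays as one group, so that tissue differences count as error, gave 86 higher and 19 lower. Of the 167 named genes 125 then lost the call and 42 kept it. Members called higher fell to 4 in the cardiac sarcomere list, 4 in the fatty acid list and 0 in the tricarboxylic acid cycle list. Without the brain control and lung hypoxia arrays, also chosen after seeing the data, 69 were below every tissue. Leaving out each array in turn gave 970 to 1493 higher and 970 to 1516 lower, 1426 to 1766 and 1391 to 1672 against brain, 1614 to 2080 and 1495 to 1920 against lung, 725 to 1057 and 534 to 879 against muscle (534 without the muscle hypoxia array), 221 to 304 above and 67 to 125 below every tissue (67 without the heart control array), and 1690 to 2020 higher and 1887 to 2482 lower in lung. Without the exposure block the counts were 1399 and 1432, and 1 named gene lost the call. With the offset at the 40th percentile, 73 and 60 probe sets were 2-fold higher and lower with fragmentation in heart and 119 and 74 with hypoxia.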
